A study of Mus musculus with 16 samples.

Results

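Motoneurons lacking hnRNP R, an RNA-binding protein that is found along axons, were examined for how their transcripts divided between the axonal and the somatodendritic compartment. The libraries were chosen by their labels as the 4 axonal and the 4 somatodendritic libraries of Hnrnpr-/- cultures, which are 8 of the 16 libraries sequenced. The other 8 libraries are the same compartments of +/+ cultures, and they entered the comparison of genotypes and the level of the deleted gene. The Hnrnpr-/- mice carry a CRISPR/Cas9 deletion of exons 1 to 5 and were backcrossed to C57Bl/6, so every cell of the animal lacks the gene and no Cre line or transgene is involved. The cells of all groups were taken from the lumbar spinal cord at embryonic day 13, enriched with an antibody to the p75 neurotrophin receptor and grown in microfluidic chambers, whose microgrooves let axons pass into a separate compartment. The culture medium of all groups held CNTF. To stimulate axon growth, BDNF at 20 ng/ml was added to the axonal compartment only, so this treatment and the compartment cannot be told apart. The panning enriches motoneurons and does not purify them. The study describes 4 biological replicates, but no label says whether these came from separate cultures or animals. The p values therefore describe the spread between these samples.

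An axon can reach far from its cell body, and part of its protein is made on the spot from mRNAs carried there by RNA-binding proteins and motor proteins. Transcripts for ribosomal proteins, mitochondrial proteins and actin are known from axons of many neurons, while many transcripts for receptors and postsynaptic proteins stay in the cell body and dendrites. In bulk RNA a level in CPM is a share of the library, so fewer cells of a type and less RNA per cell cannot be told apart, and a transcript that is higher in axons takes a larger share of axonal RNA without necessarily being more abundant per neuron.

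Total counts ranged from 27688199 to 34316113 in axonal and from 22933618 to 27040743 in somatodendritic libraries, with 23843 to 25801 genes carrying a read. Axonal cDNA was amplified with 15 PCR cycles in the full reaction volume of the kit and somatodendritic cDNA with 10 cycles in a reduced volume, so amplification and compartment cannot be told apart. Axonal replicates varied more among themselves, with a common dispersion of 0.270 against 0.0634 in the somatodendritic libraries. The first principal component held 73.6% of the variance and separated the compartments, with axonal replicates 1 and 2 nearest to the somatodendritic side, and the second (10.0%) set axonal replicate 1 apart. The share of neuronal transcripts differed between axonal libraries in the same way. Summed over the synaptic vesicle genes described further on, replicates 1 to 4 held 8105, 4282, 1650 and 2228 CPM in axons, so replicates 3 and 4 were at the low end, and 16364, 13158, 12951 and 11254 CPM in the somatodendritic compartment. Values below are in this order of replicates, as CPM, the counts scaled to a library size corrected by TMM factors, and errors of log2 fold changes are standard errors with n = 4 in each compartment.

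The deletion was visible in every library. Hnrnpr stood at 1.13, 1.01, 0.8305 and 0.619 CPM in axons against 0.662, 1.05, 0.529 and 1.14 CPM in the somatodendritic compartment, a log2 fold change of 0.09 ± 0.36, adjusted p = 0.852, whereas the 8 +/+ libraries held 120.0 to 422 CPM. Between 13 and 38 counts per Hnrnpr-/- library remained, and the compartments overlapped. Chat, the enzyme that makes acetylcholine and defines motoneurons, was scarce in the cell bodies themselves with 1.28, 0.842, 0.855 and 1.22 CPM, and Mnx1, another defining gene, had 0 counts in all 4 somatodendritic libraries.

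At an adjusted p under 0.05, axonal and somatodendritic RNA differed for 10227 of 18690 genes tested (54.7%), of which 5483 (29.3% of those tested) were higher and 4744 (25.4%) lower in axons. For 9960 genes (53.3%) the 4 axonal values did not overlap the 4 somatodendritic values, 4983 of them lying above and 4977 below. The median log2 fold change of all genes tested was 0.04. A change of over 2-fold was called for 3981 genes higher and 3357 lower, and over 8-fold for 520 and 215, so the largest differences lay more often on the axonal side. A test against a minimum change of 2-fold in either direction left 1903 higher and 832 lower. Leaving out 1 library at a time gave 8225 to 11810 genes.

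Mgp, Cryab and S100a6 were among the genes with the largest increases in axons. Mgp (matrix Gla protein, chr6:136849433-136852821, GRCm39) had 237, 29.1, 36.1 and 455 CPM in axons against 0.372, 0.0421, 0.0407 and 2.36 CPM in the somatodendritic compartment, and was 269-fold higher on the means (log2 fold change 8.07 ± 1.5, adjusted p = 0.00324). The size of this change rests on single libraries. The log2 fold change was 10.23 without somatodendritic replicate 4, which held most of the somatodendritic reads, and 7.16 without axonal replicate 4. Cryab, a small heat shock protein (chr9:50657251-50667936), had 108, 89.8, 456 and 244 CPM in axons against 0.621, 1.18, 5.62 and 3.54 CPM in the somatodendritic compartment (log2 fold change 6.35 ± 0.89, adjusted p = 0.00125, or 5.74 without axonal replicate 3 and 6.95 without somatodendritic replicate 3). S100a6, a calcium-binding protein, had 156, 16.4, 130.1 and 236 CPM in axons against 1.08, 1.31, 2.32 and 3.04 CPM in the somatodendritic compartment (log2 fold change 6.12 ± 0.82, adjusted p = 0.00113). In all 3 the lowest axonal library was above the highest somatodendritic one, while the axonal libraries differed from each other by several fold. Anxa1, a phospholipid-binding annexin, had 755, 61.9, 347 and 980.4 CPM in axons against 5.21, 2.69, 11.04 and 13.8 CPM in the somatodendritic compartment (log2 fold change 6.03 ± 0.95, adjusted p = 0.00173). Ccn1, a matrix-associated protein of the CCN family, had 1123, 596, 1654 and 1960.3 CPM in axons against 10.5, 18.02, 40.2 and 34.8 CPM in the somatodendritic compartment (log2 fold change 5.69 ± 0.58, adjusted p = 7.64e-04). Lgals1, the galactoside-binding lectin galectin-1, had 270.3, 97.5, 494 and 429 CPM in axons against 1.74, 2.61, 12.6 and 10.9 CPM in the somatodendritic compartment (log2 fold change 5.53 ± 0.83, adjusted p = 0.00156). A further 5 of the 12 largest increases among genes of at least 50 CPM were Cnn1, a calponin of smooth muscle, the secreted Ecrg4 and Igfbp7, the actin-associated Pdlim1, and the cytokine receptor gene Tnfrsf12a, with log2 fold changes of 5.4 ± 0.91 to 5.89 ± 0.91. Without axonal replicate 3 that of Cnn1 was 4.85, and without somatodendritic replicate 3 it was 6.51. Several of these genes are also expressed by non-neuronal cells, whose markers are given further on.

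**Figure D1:**
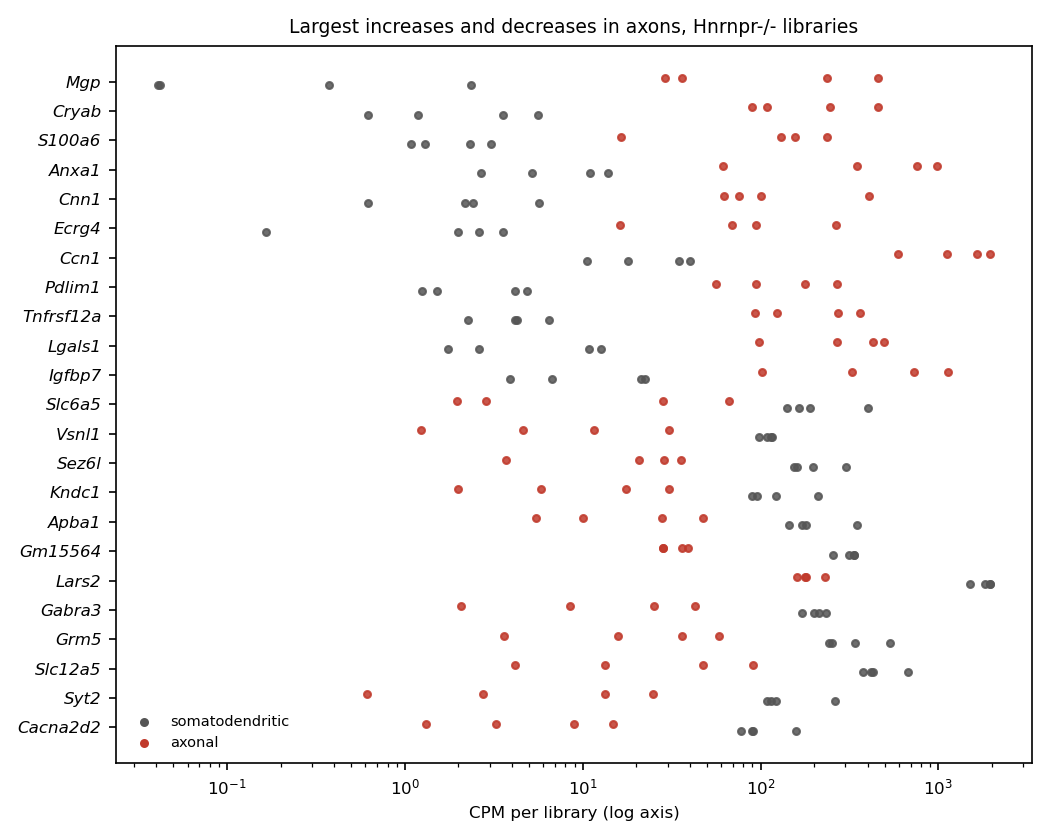
Level in CPM (log axis) of 11 of the 12 genes with the largest increase and of the 12 with the largest decrease in axons among called genes of at least 50 CPM, 1 point per Hnrnpr-/- library, red for axonal and grey for somatodendritic. The genes were chosen without overlap between the compartments and run from Mgp at the top (log2 fold change 8.07) to Cacna2d2 and Syt2 at the bottom (both -3.87). The axonal points are spread more widely.

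Cacna2d2, Syt2 and Slc12a5 were among the 12 genes with the largest decreases in axons. Cacna2d2, an auxiliary subunit of voltage-gated calcium channels (chr9:107276948-107406545), had 14.8, 8.97, 1.32 and 3.27 CPM in axons against 158, 77.3, 89.9 and 90.7 CPM in the somatodendritic compartment (log2 fold change -3.87 ± 0.70, adjusted p = 0.00288). Syt2, a calcium sensor of synaptic vesicle release (chr1:134574272-134680887), had 24.9, 13.3, 0.615 and 2.75 CPM in axons against 262, 114, 123 and 108 CPM in the somatodendritic compartment (log2 fold change -3.87 ± 0.98, adjusted p = 0.0107). Slc12a5, the neuronal potassium-chloride cotransporter (chr2:164802766-164841651), had 90.99, 47.6, 4.15 and 13.3 CPM in axons against 678, 377, 429 and 416 CPM in the somatodendritic compartment (log2 fold change -3.61 ± 0.84, adjusted p = 0.00779). In each of these genes axonal replicates 1 and 2 held more of the transcript than replicates 3 and 4. Without axonal replicate 1 the log2 fold changes were -4.53, -4.77 and -4.46. Grm5, a metabotropic glutamate receptor, had 58.7, 36.4, 3.599 and 15.9 CPM in axons against 534, 251, 338 and 243 CPM in the somatodendritic compartment (log2 fold change -3.58 ± 0.75, adjusted p = 0.00524, or -4.20 without axonal replicate 1). Gabra3, a GABA-A receptor subunit, fell by 3.38 ± 0.77 on the log2 scale, and the synaptic adaptor Apba1, Kndc1, Sez6l and the calcium sensor Vsnl1 had log2 fold changes of -3.22 ± 0.67 to -3.19 ± 0.80. Slc6a5, the neuronal glycine transporter, was also among the 12 with -3.17 ± 1.05, adjusted p = 0.0309, but it was not called without axonal replicate 2 (adjusted p = 0.0654) or without somatodendritic replicate 1 (adjusted p = 0.0768).

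Lars2 and Gm15564 completed the 12 and behaved differently, since their replicates lay close together. Lars2, the mitochondrial leucyl-tRNA synthetase, had 159.6, 179, 230.1 and 179 CPM in axons against 1513, 1951, 1838 and 1957 CPM in the somatodendritic compartment (log2 fold change -3.28 ± 0.18, adjusted p = 1.52e-04). The lncRNA Gm15564 had 28.3, 28.3, 38.9 and 36.01 CPM in axons against 256, 333, 315 and 338 CPM in the somatodendritic compartment (log2 fold change -3.24 ± 0.18, adjusted p = 1.52e-04). Together with the lncRNA LOC118568007 (log2 fold change -2.98 ± 0.14, adjusted p = 1.33e-04) these 3 genes had the smallest p values of all decreases at 50 CPM or more. On the side of the increases the smallest p values belonged to Mt3, a metallothionein of the nervous system, with 114, 152, 149 and 114 CPM in axons against 10.6, 12.5, 14.1 and 11.8 CPM in the somatodendritic compartment (log2 fold change 3.43 ± 0.18, adjusted p = 1.52e-04), to Ephx1, the microsomal epoxide hydrolase (log2 fold change 3.15 ± 0.23, adjusted p = 7.64e-04), and to Ndufa2, a subunit of complex I (log2 fold change 2.49 ± 0.19, adjusted p = 7.64e-04). In Lars2, Gm15564 and Mt3 the 4 axonal values lay close together, without the drop from replicates 1 and 2 to replicates 3 and 4 seen in Syt2 and Slc12a5. Whether Lars2, Gm15564 and LOC118568007 share reads with each other or with other loci was not tested.

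Ribosomal protein genes rose in axons with 1 exception. Of 79 cytosolic ribosomal protein genes, all tested, 78 rose in axons and none fell, against 29.3% and 25.4% of all genes, with a median log2 fold change of 1.98 (range 0.22 to 2.55). Rpl22 did not pass (0.22 ± 0.16, adjusted p = 0.258). Their summed level was 9562, 9256, 13431 and 12584 CPM in axons and 2638, 3848, 3594 and 3271 CPM in the somatodendritic compartment, so that the lowest axonal library held over 2-fold the highest somatodendritic one. Rps2, a protein of the small subunit, had 496, 383, 577 and 581 CPM in axons against 78.9, 116, 110.5 and 100.1 CPM in the somatodendritic compartment (log2 fold change 2.33 ± 0.20, adjusted p = 7.64e-04). Rpl13, of the large subunit, had 225, 272, 367 and 365 CPM in axons against 54.3, 95.6, 82.1 and 83.1 CPM in the somatodendritic compartment (log2 fold change 1.96 ± 0.24, adjusted p = 9.17e-04). Rps19 (log2 fold change 2.55 ± 0.22, adjusted p = 7.64e-04) and Rpl39 (log2 fold change 2.47 ± 0.25, adjusted p = 7.64e-04) rose most. Ribosomal protein genes have many processed pseudogenes, and reads with several alignments were divided among the copies, so the single levels are uncertain.

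Transcripts of the translation apparatus often begin with a run of pyrimidines, the 5′ terminal oligopyrimidine motif, which ties their translation to growth signalling. A 30-base window around the 5′ end of each deposited gene model was searched on the sense strand for an unbroken run of at least 8 C or T. The windows of 5 ribosomal protein genes that carry such a run across the annotated start are shown as examples of the motif. Those of 2 genes depleted from axons, which lack such a run, are shown with them. All are GRCm39 sequences written 5′ to 3′ with the annotated start at base 16, and with the longest run of at least 8 pyrimidines in capitals.
Fau, chr19:6107962-6107991, plus strand: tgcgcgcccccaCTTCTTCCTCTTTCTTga
Rpl35, chr2:38895129-38895158, minus strand: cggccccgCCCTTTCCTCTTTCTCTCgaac
Rpl32, chr6:115785690-115785719, minus strand: cgccgccgCCTCTTCCTTCTTCCTCggcgc
Rpl15, chr14:4198695-4198724, plus strand: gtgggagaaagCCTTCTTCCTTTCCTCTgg
Rpl14, chr9:120400568-120400597, plus strand: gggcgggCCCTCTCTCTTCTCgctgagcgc
Cacna2d2, chr9:107276933-107276962, plus strand: gcggcgggggcgcgcggaggcgggccggcc
Slc12a5, chr2:164802751-164802780, plus strand: gctccagcagcccggctgcggccacttgtg
A run at any place in the window, before or after the start, was present in 27 of 79 ribosomal protein windows (34.2%) and in 12.65% of the 14834 windows of protein-coding genes tested. The share was 12.3% among protein-coding genes higher in axons, 11.9% among those once the ribosomal proteins were taken out, and 13.1% among genes lower in axons. Map2, a gene lower in axons that is described further on, carries a run of 10 bases before its annotated start. Annotated starts can lie some bases from the start that a cell uses, so these shares describe the gene models. Rpl32 (2.43 ± 0.21) and Rpl15 (0.65 ± 0.17) both carry a run of 17 bases. Rpl15 was not called with the length offset described further on (adjusted p = 0.135).

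Translation factors were divided. Of 67 tested, 35 rose (52.2%) and 10 fell (14.9%), against 29.3% and 25.4% of all genes, with a median log2 fold change of 0.51. Eif4ebp1, a repressor of the cap-binding protein, had 47.3, 47.6, 159 and 128 CPM in axons against 3.64, 3.12, 5.74 and 4.47 CPM in the somatodendritic compartment (log2 fold change 4.49 ± 0.49, adjusted p = 7.99e-04). Eef1a1, which brings aminoacyl-tRNAs to the ribosome, had 1146, 1383, 1806 and 1648 CPM in axons against 767, 1031, 931 and 943 CPM in the somatodendritic compartment (log2 fold change 0.70 ± 0.19, adjusted p = 0.013), a call that the length offset described further on removed (adjusted p = 0.181). Eif4g2, a relative of the scaffold eIF4G that acts in cap-independent initiation, had 1093, 1088, 989 and 813 CPM in axons against 2237, 1696, 1924 and 1632 CPM in the somatodendritic compartment (log2 fold change -0.91 ± 0.17, adjusted p = 0.00339) and so lay below the cell bodies in all 4 axonal libraries. Eif4g3, another eIF4G, fell by 1.26 ± 0.21. Of 20 cytosolic aminoacyl-tRNA synthetases 4 rose (20.0%) and 1 fell (5.00%), with a median of 0.05, and 7 were higher without axonal replicate 1, 2 without axonal replicate 4 or somatodendritic replicate 4, 1 without somatodendritic replicate 1 or 2, and 0 without somatodendritic replicate 3.

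**Figure D2:**
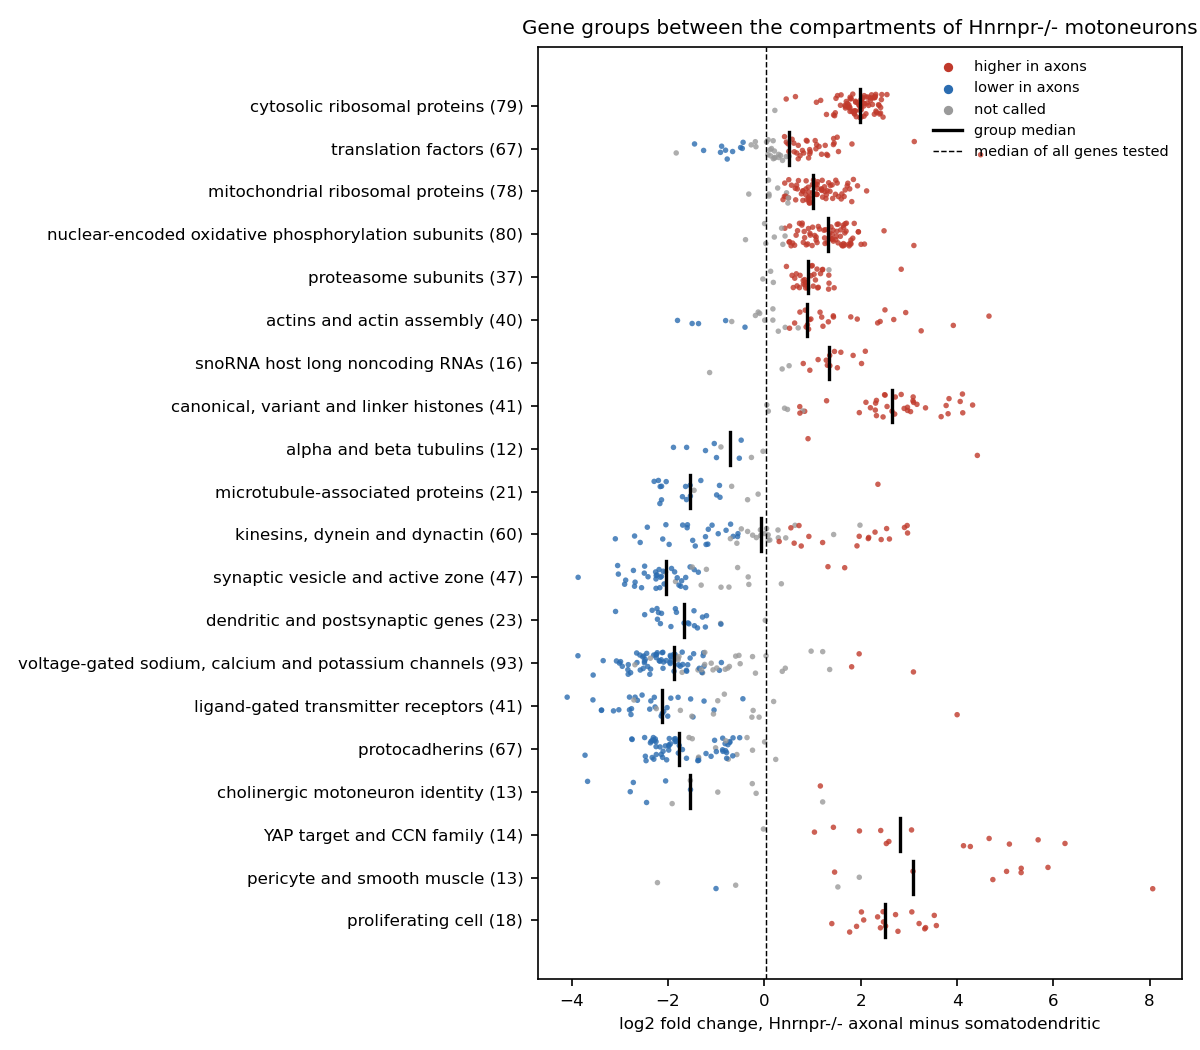
Log2 fold change between the Hnrnpr-/- axonal and somatodendritic libraries (x axis) of every tested member of the gene groups (y axis, with the number tested), coloured by call, with black bars for group medians and a dashed line for the median of all genes tested (0.04). Ribosomal proteins lie to the right with 78 of 79 called higher, and synaptic vesicle genes, channels, receptors and protocadherins to the left, with medians of -2.05, -1.88, -2.12 and -1.77.

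Genes of energy metabolism were counted by pathway, beside the 29.3% of all genes that were higher and the 25.4% that were lower. Of 80 nuclear-encoded subunits of oxidative phosphorylation tested, 73 rose and none fell (median 1.33), with summed levels of 19853, 15638, 15933 and 16123 CPM in axons and 9819, 11242, 9964 and 9410 CPM in the somatodendritic compartment. Ndufa2 had 98.6, 65.7, 88.99 and 98.2 CPM in axons against 12.8, 18.5, 15.8 and 15.5 CPM in the somatodendritic compartment. Proteins of the mitochondrial ribosome rose for 70 of 78 genes (median 1.01), for example Mrpl33 (2.12 ± 0.22, adjusted p = 7.64e-04). Subunits of the proteasome, which degrades tagged proteins, rose for 33 of 37 (median 0.90), led by the immunoproteasome subunit Psmb8 (2.84 ± 0.76, adjusted p = 0.0135). The citric acid cycle had 8 of 18 genes higher (44.4%) and 1 lower (5.56%) (median 0.31), among them Idh2 (2.3 ± 0.44, adjusted p = 0.0036). Glycolysis had 3 of 19 genes higher (15.8%) and 6 lower (31.6%) (median -0.24), with the glucose transporter Slc2a1 among the 3 (1.55 ± 0.37, adjusted p = 0.00853) and 1 higher without somatodendritic replicate 2.

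The genes of oxidative phosphorylation, the mitochondrial ribosome and the proteasome have canonical transcripts with medians of 1002, 1812 and 1701 bases, and length moved with the direction of change across the transcriptome. The canonical transcript had a median of 2531 bases in protein-coding genes higher in axons and 4758 bases in genes lower in axons, against 3541 in all protein-coding genes tested. Of 488 genes with a transcript of 500 to under 1000 bases, 73.4% were higher and 3.28% lower, whereas of 1029 genes with 8000 bases or more 11.8% were higher and 49.5% lower. Across 18690 genes, which share the same 8 libraries and are not independent, Spearman's rho between exon length and log2 fold change was -0.39. A fit with an offset for the length trend of each library, chosen after the data were seen, left 9039 genes called, 4930 higher and 4109 lower. Under it 76 of the 79 ribosomal protein genes were higher with a median of 0.89, as were 20 of 80 genes of oxidative phosphorylation (0.21), 10 of 37 of the proteasome (0.29) and 44 of 78 of the mitochondrial ribosome (0.48), with 2 of the last now lower. The citric acid cycle had 2 of 18 higher and 1 lower (-0.06). Of groups described further on, RNA polymerase subunits had 7 higher and 0 lower (0.29) and axon guidance genes 7 higher and 14 lower (-0.30). Stathmins and growth-cone proteins had 10 lower (-1.29) and motor proteins 17 higher and 15 lower, with a median that changed sign (0.06). Histones had 26 higher and 3 lower (1.43), actin genes 18 higher and 6 lower (0.49). The hnRNP genes had 16 higher and 5 lower (0.71), and spliceosome genes 23 higher and 2 lower (0.47). The SMN complex had 3 higher and 0 lower (0.49). Translation factors had 29 higher and 8 lower (0.33), synthetases 3 higher and 2 lower (0.12). Microtubule-associated proteins had 2 higher and 13 lower (-0.99), tubulins 1 higher and 9 lower (-0.84). Channels had 5 higher and 50 lower (-1.38) and protocadherins 1 higher and 42 lower (-1.51). Psmb8, Mrpl33 and Idh2 stayed higher under it. The part of length in these results, as biology or through amplification, was not tested.

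**Figure D3:**
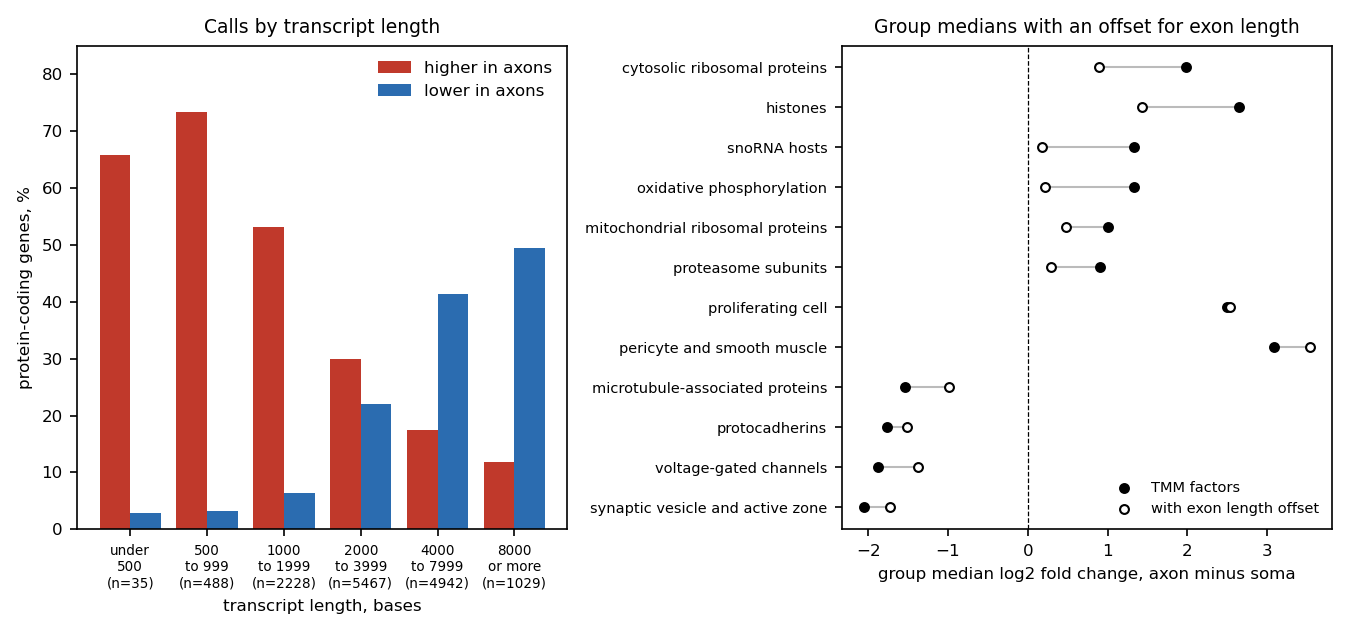
Left, percent of protein-coding genes higher (red) and lower (blue) in Hnrnpr-/- axons by length class of the canonical transcript in bases, with the number of genes. Right, median log2 fold change of gene groups with TMM factors (filled) and with an offset for exon length (open): the ribosomal protein median moves from 1.98 to 0.89 and the oxidative phosphorylation median from 1.33 to 0.21.

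Among cytoskeletal genes, those of actin were more often higher and those of microtubules more often lower. Of 40 genes of actins and actin assembly tested, 25 rose (62.5%) and 5 fell (12.5%), against 29.3% and 25.4% of all genes (median 0.88). There were 3 lower without axonal replicate 4 or somatodendritic replicate 1. Actb, the beta-actin gene whose mRNA is a classical axonal cargo, had 6099, 7617, 15269 and 9462 CPM in axons against 3141, 3943, 3519 and 3605 CPM in the somatodendritic compartment (log2 fold change 1.44 ± 0.28, adjusted p = 0.00405), and all axonal values lay above the somatodendritic ones. Myl12a, a regulatory light chain of myosin (4.67 ± 0.52, adjusted p = 8.19e-04), and Arpc1b of the Arp2/3 complex (3.92 ± 0.78, adjusted p = 0.00405) rose most. Actr2, another Arp2/3 subunit, fell (-1.8 ± 0.22, adjusted p = 9.28e-04). Of 12 alpha and beta tubulins, 2 rose and 7 fell (median -0.71). Tubb3, the neuronal beta-tubulin, had 679, 352, 119 and 139.6 CPM in axons against 1353, 1315, 1208 and 892 CPM in the somatodendritic compartment (log2 fold change -1.89 ± 0.53, adjusted p = 0.0167), while Tubb6 had 109.7, 307, 1008 and 417 CPM in axons against 14.7, 11.7, 28.9 and 30.5 CPM in the somatodendritic compartment (log2 fold change 4.42 ± 0.70, adjusted p = 0.00178). The tubulin count rests on several libraries, as only 4 were lower without axonal replicate 2 or 4 or without somatodendritic replicate 1, 2 or 3, and only 1 was higher without any 1 somatodendritic replicate.

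Microtubule-associated proteins were lower in axons for 16 of 21 genes, with 1 higher and a median of -1.54. Map1b, which binds axonal microtubules, had 1068, 618, 460.5 and 247 CPM in axons against 3013, 2441, 2458 and 1917 CPM in the somatodendritic compartment (log2 fold change -2.04 ± 0.41, adjusted p = 0.00427). Dcx, doublecortin of young neurons, had 181, 112, 20.4 and 37.1 CPM in axons against 577, 406, 397 and 329 CPM in the somatodendritic compartment (log2 fold change -2.29 ± 0.62, adjusted p = 0.0144). Mapt, which encodes tau, had 867, 435, 61.6 and 189.8 CPM in axons against 1164, 1139, 1059.6 and 906 CPM in the somatodendritic compartment, and its -1.46 ± 0.65, adjusted p = 0.0864 did not pass, although all 4 axonal values lay below the somatodendritic ones. It passed without axonal replicate 1 (adjusted p = 0.0104) and with the replicate number as a block (adjusted p = 0.0324). Of 16 stathmins and growth-cone proteins none rose and 6 fell (median -0.89), among them Dpysl2 (-2.65 ± 0.23, adjusted p = 7.64e-04) and Crmp1 (-1.94 ± 0.55, adjusted p = 0.0167), 2 collapsin response mediators. With 1 library left out, 4 (without axonal replicate 3) to 11 (without axonal replicate 1) fell. Kinesins, dynein and dynactin, the motors of axonal transport, went both ways with 18 of 60 higher (30.0%) and 23 lower (38.3%), against 29.3% and 25.4% of all genes (median -0.08), from Kif26a (-3.09 ± 0.45, adjusted p = 0.0014) to the dynein light chain Dynlrb2 (2.97 ± 0.43, adjusted p = 0.0014). The neurofilament gene Nefl had 952, 322, 32.9 and 113 CPM in axons against 1601, 1307, 1235 and 991 CPM in the somatodendritic compartment (log2 fold change -1.85 ± 0.84, adjusted p = 0.0884), which passed without axonal replicate 1 (adjusted p = 0.00626) and with the block (adjusted p = 0.0238).

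Synaptic genes were lower in axons as a group, although the proteins of the vesicle cycle act in axons. Of 47 genes of synaptic vesicles and active zones, 34 fell (72.3%) and 2 rose (4.26%), against 25.4% and 29.3% of all genes (median -2.05). In 38 of them all axonal values lay below the somatodendritic ones, as they did in 4977 of the 18690 genes tested. The count fell to 22 without axonal replicate 4 and to 21 without somatodendritic replicate 1. Sv2b, a vesicle glycoprotein, had 20.2, 14.4, 1.48 and 7.81 CPM in axons against 123, 79.2, 87.4 and 72.6 CPM in the somatodendritic compartment (log2 fold change -3.05 ± 0.65, adjusted p = 0.00565). The 2 that rose were the widely expressed Vamp3 (1.67 ± 0.29, adjusted p = 0.00243) and Sypl (1.32 ± 0.24, adjusted p = 0.00281). Snap25 had 767, 273, 32.9 and 70.5 CPM in axons against 1400.4, 1247, 1257 and 836 CPM in the somatodendritic compartment (log2 fold change -2.05 ± 0.84, adjusted p = 0.0657) and passed without axonal replicate 1 (adjusted p = 0.0050) and with the block (adjusted p = 0.0186). DESeq2 called all 3 of Mapt, Nefl and Snap25 lower. Of 23 dendritic and postsynaptic genes 21 fell and none rose (median -1.67). Map2, the dendritic microtubule protein, had 377, 245, 55.03 and 137 CPM in axons against 1394, 725, 819 and 642 CPM in the somatodendritic compartment (log2 fold change -2.14 ± 0.55, adjusted p = 0.0112), and Dlg2, a postsynaptic scaffold, fell by 3.09 ± 0.79.

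Channels and receptors were also more often lower, beside the 25.4% of all genes that were lower and the 29.3% that were higher. Of 93 voltage-gated sodium, calcium and potassium channel genes tested, 62 fell and 3 rose (median -1.88). Scn3b, an auxiliary sodium channel subunit, had 72.01, 43.4, 14.03 and 19.6 CPM in axons against 358, 260.1, 268 and 266 CPM in the somatodendritic compartment (log2 fold change -2.95 ± 0.50, adjusted p = 0.00227). The potassium channel Kcnk5 went the other way with 3.696, 5.41, 7.198 and 20.8 CPM in axons against 0.662, 0.7999, 1.38 and 1.48 CPM in the somatodendritic compartment (log2 fold change 3.1 ± 0.60, adjusted p = 0.00375). Of 41 ligand-gated receptor genes tested, 29 fell and 1 rose (median -2.12). Gria2, a subunit of AMPA receptors, had 173, 135, 22.9 and 45.4 CPM in axons against 496, 369, 387 and 273 CPM in the somatodendritic compartment (log2 fold change -2.02 ± 0.58, adjusted p = 0.0179). Among acetylcholine receptor subunits, Chrnb4 fell with 0, 0.661, 0.123 and 0 CPM in axons against 4.47, 2.69, 3.42 and 3.12 CPM in the somatodendritic compartment (log2 fold change -4.09 ± 1.06, adjusted p = 0.0119), and Chrnb1, known from the muscle receptor, was the 1 member that rose (4.00 ± 0.58, adjusted p = 0.00137). Protocadherins, the cell-surface adhesion proteins that give neurons an identity, fell for 56 of 67 genes and rose for none (median -1.77). Pcdhgc4 had 84.9, 64.8, 19.1 and 34.5 CPM in axons against 301, 220.1, 230.2 and 237 CPM in the somatodendritic compartment (log2 fold change -2.28 ± 0.43, adjusted p = 0.00325). Clustered protocadherins share exons, and reads in them were divided among the genes. Axon guidance genes were mixed with 4 of 37 higher and 20 lower (median -1.12), or 2 higher with the replicate block or without axonal replicate 3 or somatodendritic replicate 2 or 3, the netrin receptors Unc5b (3.77 ± 0.67, adjusted p = 0.00272) and Unc5d (-3.35 ± 0.87, adjusted p = 0.012) moving in opposite directions.

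RNA-binding proteins of mRNA transport gave 7 genes higher (29.2%) and 8 lower (33.3%) of 24, against 29.3% and 25.4% of all genes (median -0.17, or 0.37 with the length offset). Igf2bp1, which carries beta-actin mRNA, had 10.9, 7.49, 20.3 and 17.2 CPM in axons against 2.15, 0.842, 2.12 and 2.11 CPM in the somatodendritic compartment (log2 fold change 2.95 ± 0.43, adjusted p = 0.00139). Elavl2, a neuronal Hu protein, had 54.5, 25.9, 5.81 and 7.05 CPM in axons against 171, 148, 129.8 and 109 CPM in the somatodendritic compartment (log2 fold change -2.58 ± 0.68, adjusted p = 0.0125), and Stau2, a protein of dendritic transport granules, fell as well (-1.84 ± 0.38, adjusted p = 0.00497). Within the hnRNP family, 11 of 33 rose (33.3%) and 6 fell (18.2%), against 29.3% and 25.4% of all genes (median 0.29). The splicing repressor Ptbp1, which is silenced as neurons mature, had 137, 224, 442 and 264 CPM in axons against 34.1, 52.2, 63.4 and 75.4 CPM in the somatodendritic compartment (log2 fold change 2.25 ± 0.38, adjusted p = 0.00241), and its neuronal paralogue Ptbp2 had 68.6, 84.1, 31.3 and 53.7 CPM in axons against 176, 197, 181 and 160.3 CPM in the somatodendritic compartment (log2 fold change -1.59 ± 0.28, adjusted p = 0.00266). The pair thus moved in opposite directions without overlap between the compartments. Without somatodendritic replicate 1, 2 or 3 the hnRNP genes called higher were 7. Core spliceosome and SR proteins had 29 of 54 higher and 5 lower (median 0.59), such as Snrpf (2.35 ± 0.33, adjusted p = 0.00131), and the SMN complex, which assembles such particles, 5 of 8 higher and none lower (median 1.01).

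Of 15 nuclear and chromatin-associated lncRNAs tested, 3 rose (20.0%) and 7 fell (46.7%), against 29.3% and 25.4% of all genes (median -0.90). Malat1, 1 of the 3, lost its call under several alternatives given further on. Norad, which is on this list although it is known largely from the cytoplasm, had 459, 275, 142 and 189 CPM in axons against 1305, 936, 1029.8 and 831 CPM in the somatodendritic compartment (log2 fold change -1.95 ± 0.36, adjusted p = 0.00317) and the imprinted Rian fell (-2.59 ± 0.52, adjusted p = 0.00427), while Neat1, the scaffold of paraspeckles, had 33.5, 15.2, 43.2 and 20.5 CPM in axons against 7.28, 3.705, 14.8 and 7.17 CPM in the somatodendritic compartment (log2 fold change 1.77 ± 0.47, adjusted p = 0.0128). Host genes of snoRNAs rose for 13 of 16 (median 1.33), for example Gas5 (1.59 ± 0.21, adjusted p = 0.00108), but with the length offset 2 rose and 1 fell, and Gas5 was not called (adjusted p = 0.0886). Their summed level went the other way, with 524, 314, 222 and 251 CPM in axons against 478, 511, 485 and 396 CPM in the somatodendritic compartment. Axonal replicates 2 to 4 thus lay below all somatodendritic libraries. Subunits of the RNA polymerases, whose work is in the nucleus, rose for 15 of 26 and fell for 2, or for 0 or 1 with any library but axonal replicate 1 and somatodendritic replicate 2 left out (median 0.85), and Polr2a (-0.21 ± 0.25, adjusted p = 0.489) and Polr2b (-0.13 ± 0.15, adjusted p = 0.469), the largest subunits of polymerase II, passed in neither direction. Of 104 histone genes 24 had no count and 41 were tested, of which 36 rose and none fell (median 2.65). H2az1, a histone variant, had 322, 605, 1035 and 575 CPM in axons against 125, 154, 182 and 126 CPM in the somatodendritic compartment (log2 fold change 2.11 ± 0.34, adjusted p = 0.00186). Most histone mRNAs lack a poly(A) tail and the cDNA was primed on one, so their levels are uncertain.

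Genes that give spinal neurons their identity were more often lower than higher in axons, beside 25.4% lower and 29.3% higher of all genes. Of 13 motoneuron genes tested, 6 fell and 1 rose (median -1.54), and 4 to 7 fell with 1 library left out. Ache, which degrades acetylcholine, had 89.7, 56.3, 10.4 and 27.3 CPM in axons against 278, 230.2, 245 and 249 CPM in the somatodendritic compartment (log2 fold change -2.45 ± 0.56, adjusted p = 0.00731). Chat had 0.0596, 0.252, 0 and 0 CPM in axons (log2 fold change -3.67 ± 0.88, adjusted p = 0.00882, or -5.38 without axonal replicate 2), and Lhx4 fell as well (-2.78 ± 0.67, adjusted p = 0.00886). Isl1, Lhx3 and the vesicular acetylcholine transporter Slc18a3 fell by 1.53, 2.72 and 2.05 on the log2 scale. These calls lie near the threshold. Isl1 was not called without axonal replicate 2 or 4 (adjusted p = 0.0543 to 0.0547) or in the fit of all 16 libraries (0.148). Slc18a3 was not called without axonal replicate 4 or somatodendritic replicate 1, 2 or 4 (0.0564 to 0.0901), and Lhx3 not without axonal replicate 2 or 4 or any 1 somatodendritic replicate (0.0543 to 0.0813). In these fits the log2 fold changes were -1.37 to -1.59 for Isl1, -1.83 to -2.15 for Slc18a3 and -2.50 to -2.87 for Lhx3, and without axonal replicate 1 those of Isl1 and Lhx3 were -2.18 and -3.97. Foxp1, a factor of limb-innervating motoneurons, was the member that rose with 103, 41.2, 60.96 and 92.4 CPM in axons against 31.2, 30.4, 40.97 and 30.2 CPM in the somatodendritic compartment (log2 fold change 1.16 ± 0.29, adjusted p = 0.00955). Isl2 and Mnx1 were too low to be tested. Among factors of other spinal neurons 12 of 21 fell and none rose (median -1.88). With 1 library left out, 8 (without axonal or somatodendritic replicate 4) to 19 (without axonal replicate 1) fell.

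Markers of other cell types were measured in both compartments, and their counts stand beside 29.3% higher and 25.4% lower of all genes. The 13 pericyte and smooth muscle genes summed to 3132, 2512, 11258 and 4719 CPM in axons and 127, 159, 334 and 241 CPM in the somatodendritic compartment, and 8 rose and 1 fell. The number lower was 2 without axonal replicate 1 and 0 without axonal replicate 3 or somatodendritic replicate 1 or 4. Acta2, smooth muscle actin, had 1838, 1789, 8952 and 2754 CPM in axons against 21.5, 82.3, 191 and 85.4 CPM in the somatodendritic compartment (log2 fold change 5.33 ± 0.85, adjusted p = 0.00182). This gene alone made up most of the pericyte and smooth muscle sum in every axonal library. The 16 fibroblast genes summed to 7684, 3030, 7932 and 10227 CPM in axons and 420.5, 447, 1893 and 1908 CPM in the somatodendritic compartment, and 8 rose and none fell. Thbs1, a matrix protein, had 3364, 662, 1631 and 3554 CPM in axons against 103, 61.1, 216 and 139 CPM in the somatodendritic compartment (log2 fold change 4.15 ± 0.62, adjusted p = 0.00153), whereas the collagen genes Col1a1, Col1a2 and Col3a1 and the proteoglycans Dcn and Lum did not pass. The 14 YAP targets and CCN genes, which respond to stretch and adhesion, rose for 13 and fell for none (median 2.82), with sums of 3439, 1987, 4984 and 5950 CPM in axons against 261, 257, 425 and 345 CPM. The axonal sums of these 3 lists were above the somatodendritic range in all 4 libraries.

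The 16 astrocyte and radial glia genes summed to 4235, 7260, 7412 and 6284 CPM in axons and 1990, 2135, 2614 and 3064 CPM in the somatodendritic compartment, with 8 higher and none lower. Vim, an intermediate filament of progenitors and many other cells, had 1357, 1408, 2763 and 1555 CPM in axons against 138, 126, 227 and 208 CPM in the somatodendritic compartment (log2 fold change 3.34 ± 0.33, adjusted p = 7.64e-04), and Gfap, Slc1a3 and Aqp4 did not pass. The 18 proliferation genes were all higher (median 2.5), but their summed level of 544, 3442, 4647 and 2658 CPM in axons against 446, 478, 601 and 556 CPM put axonal replicate 1 within the somatodendritic range, and 5 of the 18 did not overlap, against 53.3% of all genes. Cdk1, the mitotic kinase, had 22.1, 217, 353 and 186 CPM in axons against 10.5, 16.4, 20.98 and 17.5 CPM in the somatodendritic compartment (log2 fold change 3.57 ± 0.70, adjusted p = 0.00395). With the replicate block 16 of the 18 stayed higher. Of 14 oligodendroglia and Schwann cell genes tested 2 rose (14.3%, below the 29.3% of all genes) and none fell, and 1 rose without somatodendritic replicate 1. Of 8 endothelial genes tested Kdr and Flt1 rose, while Tie1, Cldn5 and Pecam1 fell, with axonal counts of 0 to 1, 0 to 5 and 0 to 34, and Pecam1 was not called without axonal replicate 3 or somatodendritic replicate 4 (adjusted p = 0.0572 and 0.0692). None of 11 microglia genes tested passed, and their sum was 1.97, 71.9, 3.29 and 773 CPM in axons and 16.1, 60.2, 79.6 and 209.7 CPM in the somatodendritic compartment, so axonal replicate 4 held most of it. The part of these other cell types in the increases of matrix, actin, histone and ribosomal protein genes described above was not tested.

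**Figure D4:**
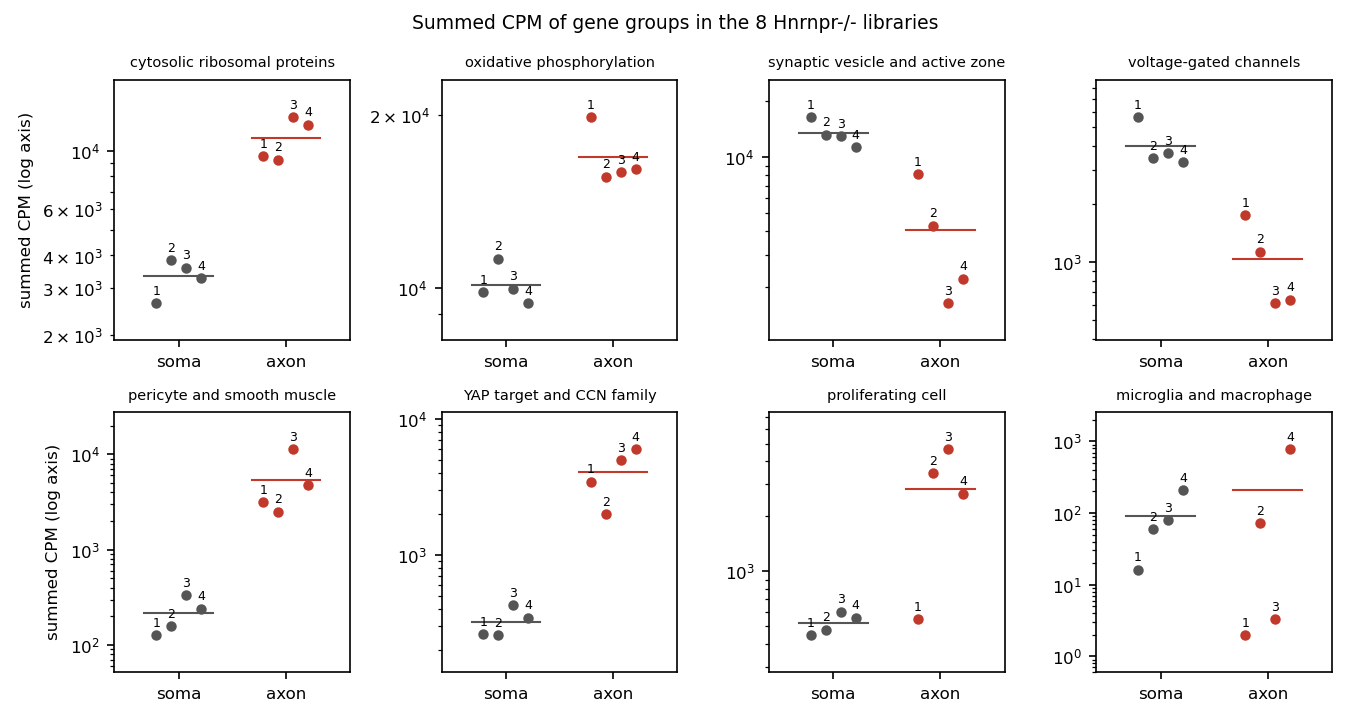
Summed CPM (log axis) of 8 gene groups in each Hnrnpr-/- library, somatodendritic in grey and axonal in red, with the replicate number at each point and lines for means of 4 libraries. Ribosomal protein sums lie at 9256 to 13431 CPM in axons and 2638 to 3848 in the somatodendritic compartment without overlap, while the proliferation sum of axonal replicate 1 (544) lies within the somatodendritic range of 446 to 601.

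The same compartment difference was available in +/+ motoneurons, and the question was whether loss of hnRNP R altered it. In a fit of all 16 libraries the difference of the differences was tested for 19964 genes, of which none (0%) had an adjusted p under 0.05 and 265 (1.33%) had an unadjusted p under 0.05. With the replicate number within genotype as a block, none was called either and 220 had an unadjusted p under 0.05. DESeq2 with default settings called 1 gene, the lncRNA Gm13373, at an adjusted p of 0.0215, with 521 genes under the unadjusted threshold. With 4 libraries per group and Hnrnpr-/- axonal replicates that varied more than the somatodendritic ones, smaller differences could go uncalled. The lack of calls therefore does not show that the compartment difference was equal in both genotypes. Group medians from the fit of all 16 libraries were compared for the 50 gene groups with at least 5 tested members. All 50 had the same sign in both genotypes, but some lay near 0, where the sign depends on the fit. The synthetase median was -0.00562 in Hnrnpr-/- and -0.120 in +/+ cultures, whereas the fit of the Hnrnpr-/- libraries alone gave 0.05. The ribosomal protein median was a log2 fold change of 1.92 in Hnrnpr-/- and 1.72 in +/+ cultures, that of oxidative phosphorylation 1.24 and 1.08, synaptic vesicle genes -2.11 and -2.13, and protocadherins -1.83 and -1.65. The Hnrnpr-/- median minus the +/+ median lay between -1.18 for the fibroblast markers and 0.556 for the microglia markers, and within 0.5 of 0 for 47 groups. In the fit of all 16 libraries none of the 79 ribosomal protein or 68 translation factor genes had an adjusted p under 0.05 for the genotype difference. The same held for all 19964 genes tested.

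**Figure D5:**
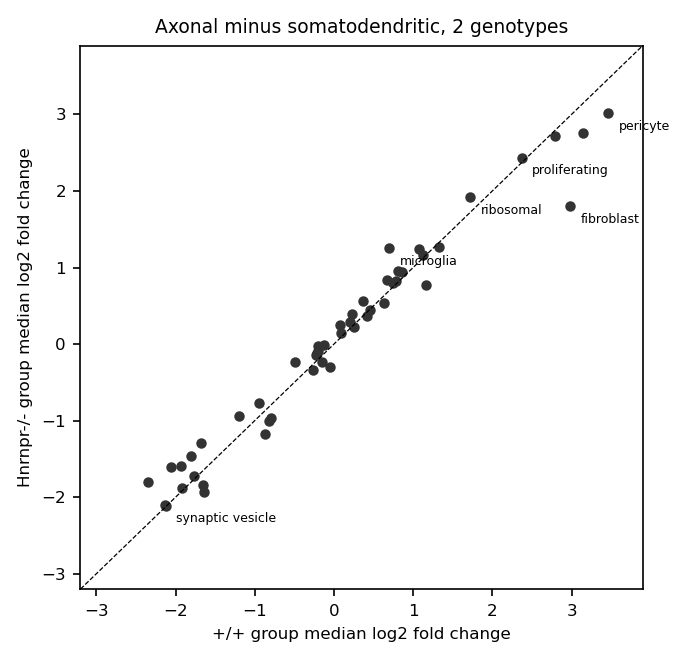
Median axonal minus somatodendritic log2 fold change of each of 50 gene groups in Hnrnpr-/- (y axis) and +/+ (x axis) cultures from the fit of all 16 libraries, with the dashed line of equality. All 50 points have the same sign in both genotypes, and the fibroblast markers lie farthest below the line (1.80 in Hnrnpr-/- against 2.98).

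Among single genes the smallest p of the genotype difference belonged to Gm13373, a lncRNA at very low counts (unadjusted p = 1.31e-05, adjusted p = 0.262). It had no count in the 4 +/+ axonal libraries and 0.155 to 0.663 CPM in the 4 Hnrnpr-/- axonal libraries, against 0.476 to 1.16 CPM in the 8 somatodendritic libraries of both genotypes. The next 5 were Mir568, LOC118567938, the calcium-binding copine Cpne9, the muscle myosin Myh2 and the biotin ligase Hlcs, none of which passed after adjustment. For Actb the difference between genotypes was 0.08 ± 0.46 and for Rps2 0.11 ± 0.27. Malat1, a nuclear lncRNA, had 556, 406, 544 and 519 CPM in axons against 147, 370.3, 363 and 276 CPM in the somatodendritic compartment (log2 fold change 0.81 ± 0.28, adjusted p = 0.0387), a log2 fold change of 2.26 ± 0.42 in +/+ cultures, and an unadjusted p of 0.0178 for the difference, which did not pass after adjustment. Its call was lost without axonal replicate 1, 3 or 4 or somatodendritic replicate 3 or 4 (adjusted p = 0.0502 to 0.0860), in the fit of all 16 libraries (0.133), with limma voom (0.100) and with no filter (0.0574).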

How the data were processed

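Axonal and somatodendritic RNA of Hnrnpr-/- and +/+ motoneurons was measured with 4 libraries per group, and groups and replicate numbers were taken from the sample titles. The study's methods give Cutadapt, STAR 2.7.2b, the GRCm39 RefSeq annotation and featureCounts 1.6.4 in the reverse-strand exon setting, with reads of several alignments or genes divided. The deposited values are expected counts made by the authors in this way, unnormalized, for 46320 genes, of which 39.1% of the values above 0 are fractions. No value column was left unmapped.

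Counts were rounded and fitted with edgeR 4.0.16 (R 4.3.3), using filterByExpr, TMM factors, a mean per compartment and the quasi-likelihood F-test on the 8 Hnrnpr-/- libraries. The difference between genotypes was the interaction in all 16. Adjusted p values are Benjamini-Hochberg values over all genes tested, two-sided, with a threshold of 0.05, and standard errors are the log2 fold change divided by the square root of F. Depth was 22933618 to 34316113 counts per Hnrnpr-/- library. Same-numbered axonal and somatodendritic libraries deviated together (correlations of 0.458, 0.204, 0.234 and 0.596 across genes), so the numbers were taken to pair the samples, which no label states, and the block was an alternative.

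The libraries, gene lists and tests were chosen with earlier results of these data known, so lists are described by counts and medians without a test. Named genes were Hnrnpr, the 12 largest changes in each direction and the 3 smallest p values in each direction among called genes of at least 50 CPM (the changes also without overlap), the 2 most abundant and the 2 most changed members of each list in each direction, compartment markers of the study, called markers of other cell types and the 6 smallest p values of the genotype difference. Outside this rule, Rpl14, Rpl15, Rpl22, Rpl32, Rpl35, Fau, Isl1, Lhx3, Slc18a3, mt-Rnr1, mt-Rnr2, untested genes and genes named as not passing were named after their values were seen. A few genes that meet the rule are not reported here. The synthetase list was corrected after gene names were seen. Alternatives were RLE factors, library totals, no filter, a stricter filter of 10 counts in each library of 1 compartment or more, unrounded counts, DESeq2 1.42.0 with and without shrinkage, limma 3.58.1 voom with quality weights, protein-coding genes, all 16 libraries, the replicate block, a minimum 2-fold change, 1 library left out, and an offset for exon length added after the data were seen. Transcript lengths are those of the reference annotation of GRCm39, found for 14189 of 14840 protein-coding genes.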

Additional observations from a re-analysis of the deposited data

Results flagged for a closer look

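Of 260 sets of 4 replicate values compared, 22 held a library far from the other 3, where chance gives about 1 in 20. The value given is the gap to the nearest other library as a share of the whole range. Somatodendritic replicate 1 was high for Cacna2d2 (0.835), Eif4g3 (0.922), Scn3b (0.919), Syt2 (0.905), the kinesin and dynein genes (0.849), protocadherins (0.856), the immediate early genes described under the other observations (0.961) and voltage-gated channels (0.842), and low for histones (0.925). Axonal replicate 3 was high for Acta2 (0.865), Cnn1 (0.890), Vim (0.859) and the synthetases (0.922). Axonal replicate 4 was high for the microglia genes (0.909) and low for LOC118568007 (0.864), and axonal replicate 1 was high for oxidative phosphorylation (0.885) and low for Polr2b (0.971). Rpl39 was low in axonal replicate 2 (0.901). Among somatodendritic libraries, Foxp1 was high in replicate 3 (0.909), Mgp in replicate 4 (0.857) and the SMN complex in replicate 2 (0.867), where Igf2bp1 was low (0.968).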

How the results depend on the processing

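The number of genes called between the compartments, 10227 as reported, lay between 8341 with protein-coding genes alone and 11911 with DESeq2 under the alternatives other than a minimum change, and between 8225 (without somatodendritic replicate 1) and 11810 (without axonal replicate 1) with 1 library left out. A test against a minimum change of 2-fold left 2735, of which 1903 were higher and 832 lower (69.6% higher). With the replicate number as a block it was 10511, 5340 higher and 5171 lower. Beyond the results given with it above, the block gave 1 snoRNA host, 2 oligodendroglia and 2 pericyte genes lower in place of 0, 0 and 1, and 9 stathmins and growth-cone proteins and 9 motoneuron genes lower in place of 6 and 6. Besides the genes given with it above and the mitochondrial ribosomal RNAs under the other observations, it changed no call of a gene described with its values. The share of calls that were higher in axons lay between 50% and 56.8% under the alternatives other than a minimum change, and at most 18 genes were called in opposite directions. For the genotype difference, none was called with 1 library left out (0 to 0), with 191 to 671 genes at an unadjusted p under 0.05, and DESeq2 with default settings called 1. Under the other alternatives 138 (protein-coding genes alone) to 925 genes (no filter) had an unadjusted p under 0.05. Leaving out 1 library moved the fold of 30 of 92 called genes described with their values by over 1.5 times and reversed none. Besides those given above or under the other observations, the log2 fold changes without axonal replicate 1 were -3.87 for Apba1, -2.59 for Crmp1, -2.92 for Dcx, -3.79 for Dlg2, -3.43 for Elavl2, -4.10 for Gabra3, -4.34 for Slc6a5, -2.56 for Tubb3, -4.22 for Unc5d and -4.23 for Vsnl1, and that of Chrnb4 was -6.21 without axonal replicate 2. Without axonal replicate 3 they were 4.48 for Acta2, 3.35 for Chrnb1 and 3.69 for Tubb6, without axonal replicate 4 they were 3.34 for Arpc1b and 2.33 for Kcnk5, without somatodendritic replicate 4 they were 4.64 for Arpc1b and 3.62 for Psmb8, and without somatodendritic replicate 1 that of Gadd45b was 3.75. Of 277 named genes tested, 152 kept their call under every alternative. The sign of 1 called gene changed, Pantr1, whose log2 fold change of 1.32 became -0.0455 with the length offset. It was then not called (adjusted p = 0.890). The cause was not tested. Depth limits genes at low counts, such as Chat, which had 20 to 31 counts in somatodendritic libraries.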

Other observations

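Immediate early and injury response genes were higher in axons for 8 of 17 tested and lower for none (median 1.22), with Gadd45b (3.02 ± 0.56, adjusted p = 0.00322) and Ier2 (2.63 ± 0.49, adjusted p = 0.00311) rising most, and 5 were higher without somatodendritic replicate 2 or 3 and 4 with the length offset. Genes of the integrated stress response had 6 of 16 higher (37.5%) and 2 lower (12.5%), against 29.3% and 25.4% of all genes, or 4 lower without axonal replicate 1, the serine synthesis genes Phgdh (1.92 ± 0.42, adjusted p = 0.0061) and Psat1 (1.55 ± 0.39, adjusted p = 0.0104) rising and Ddit4, an inhibitor of mTORC1 signalling, falling (-3.08 ± 0.33, adjusted p = 7.78e-04). Of 24 genes of sterol and fatty acid synthesis 4 rose (16.7%) and 5 fell (20.8%), both shares below those of all genes. Without somatodendritic replicate 2, 2 rose, and 5 rose and 3 fell with the length offset. Among those that fell was Fasn, the fatty acid synthase (-1.67 ± 0.38, adjusted p = 0.00712). Of 26 heat shock proteins and chaperonins 12 rose and 2 fell, with Hspb1, a small heat shock protein, at 5.94 ± 0.67, adjusted p = 8.26e-04.

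The 2 mitochondrial ribosomal RNAs were higher in axons, but unevenly so. mt-Rnr2 had 3024, 789, 373 and 1757 CPM in axons against 221, 549, 481 and 317 CPM in the somatodendritic compartment (log2 fold change 1.92 ± 0.61, adjusted p = 0.0259) and mt-Rnr1 434, 105, 37.8 and 269.8 CPM in axons against 16.2, 38.9, 37.3 and 22.5 CPM in the somatodendritic compartment (log2 fold change 2.88 ± 0.70, adjusted p = 0.00905). In both the axonal level was highest in replicates 1 and 4, and that of replicate 3 lay within the somatodendritic range. Without axonal replicate 1 the log2 fold changes were 1.31 for mt-Rnr2 and 2.25 for mt-Rnr1. Neither was called with the replicate block (adjusted p = 0.117 for mt-Rnr2 and 0.0519 for mt-Rnr1), and mt-Rnr2 was not called without axonal replicate 1 or 4 or somatodendritic replicate 1, 3 or 4 (0.0510 to 0.0741), in the fit of all 16 libraries (0.0567) or with the exon length offset (0.0695). By class of gene, pseudogenes stood out with 640 of 1150 tested (55.7%) higher and 80 (6.96%) lower in axons, against 29.6% and 27.1% of protein-coding genes and 15.1% and 23.6% of lncRNAs. Reads shared by a pseudogene and its parent gene were divided between them.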
